A study of Mus musculus with 23 samples.

Results

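The 10 genes described here encode the fibulins Fbln1, Fbln2, Fbln5, Efemp1 and Efemp2, the elastic fibre proteins Eln, Fbn1 and Mfap5, the cross-linking enzyme Lox, and Fndc1, a secreted protein with fibronectin type III domains that is not a known part of the elastic fibre. They were taken by gene symbol from a table of 54354 genes, and each symbol matched 1 row. The list was chosen by measured values, because Fbln1, Fndc1 and Eln were lower in GFP-positive cells, so every difference between GFP-positive and GFP-negative libraries given for the 10 genes below is a description, and nothing is read from calls on that contrast. The values that prompted the choice were those of Fbln1 (log2 fold change -3.17, SE 0.54), Eln (-3.84, SE 0.96) and Fndc1 (-2.44, SE 0.51), each as GFP-positive minus GFP-negative. The other genes came in as relatives by family or function.

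Elastic fibres give stretch to tissues such as vessel walls, lung, skin and the submucosa of the gut. Fibroblasts, smooth muscle cells and related stromal cells secrete tropoelastin, the Eln product, which is deposited on microfibrils built from fibrillin. Fibulins bridge tropoelastin, microfibrils, basement membranes and cell surface integrins, and lysyl oxidases join tropoelastin chains into an insoluble network. In tumours these proteins are known mainly as products of the stroma, although epithelial tumour cells can express some of them.

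RNA of sorted cells was sequenced in bulk from mouse colon tumours, in 12 GFP-negative (GFP-N) and 11 GFP-positive (GFP-P) libraries. Both populations came from tumours seeded by AKP organoids that carried the tdT marker and a Basp1 reporter made of eGFP and the diphtheria toxin receptor, and both share the genotype label Basp1-GFP. The organoids had been placed in the mouse colon, and the tumours were digested and separated by GFP in a cell sorter. Whether tdT was also gated, the strain, age and diet of the mice, and the number of organoid lines are not stated in the labels, although the series title carries the letters HFD. Libraries of the 2 populations share identifiers in their names. For 9 identifiers the names match, and the last, called 8045-8050 after its GFP-P library, was made here by joining GFP-N 4 (named 8050) and GFP-N 5 (named 8045). Library numbers fall into 2 runs, called library set 1 (6 GFP-N and 5 GFP-P) and library set 2 (6 and 6). Identifier 61-1 has 2 GFP-P libraries, GFP-P 2 in set 1 and GFP-P 7 in set 2, beside GFP-N 8 in set 2. Values by identifier average them, and the main fits took every library as separate. Identifier 7082 has GFP-N 3 alone and no GFP-P library.

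Depth limits all that follows. The median total was 144334 counts in GFP-N libraries (25458 to 2304316) and 1418140 in GFP-P libraries (37125 to 4238877), with 3 and 1 libraries under 100000. All 12 epithelial markers had counts in both populations, with summed levels of 2831 to 8704 CPM (a gene's counts over its library's total, scaled to the usual unit) in GFP-N and 3256 to 7873 CPM in GFP-P libraries. Basp1, the gene of the reporter, had a median of 27.7 CPM in GFP-N and 51.3 CPM in GFP-P libraries, with a log2 fold change of 0.63 (SE 0.38, edgeR adjusted p = 0.997). GFP-P 3 stood apart with a macrophage marker sum of 31594 CPM against a GFP-P median of 364 CPM.

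Promoter sequence was at hand for 7 of the 10 genes, in RefSeq's table for build GRCm38.p6. Entries for Eln, Mfap5 and Lox were missing. The 250 bases upstream of the first annotated start are printed for Fbln1 and Fndc1, because both are among the genes whose lower level prompted the list and their windows lie outside the annotated gene body. Capitals mark matches, on either strand, to a TATA box (TATAAA), a GC box (GGGCGG), an AP-1 site (TGANTCA) or a TEAD site (GGAATG). The Fbln1 window is chr15:85205699-85205948 (plus strand), and the Fndc1 window is chr17:7827303-7827552 (minus strand).
Fbln1: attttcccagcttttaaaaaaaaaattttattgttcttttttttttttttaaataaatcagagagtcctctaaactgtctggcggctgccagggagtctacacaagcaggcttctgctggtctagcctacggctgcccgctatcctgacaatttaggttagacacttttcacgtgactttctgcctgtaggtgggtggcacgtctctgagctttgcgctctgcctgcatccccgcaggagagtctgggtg
Fndc1: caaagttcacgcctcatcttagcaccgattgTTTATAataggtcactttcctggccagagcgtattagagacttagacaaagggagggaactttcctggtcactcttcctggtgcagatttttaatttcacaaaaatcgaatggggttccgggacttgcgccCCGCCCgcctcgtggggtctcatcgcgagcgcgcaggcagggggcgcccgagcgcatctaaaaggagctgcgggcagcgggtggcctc
No match to the 4 motifs lay in this Fbln1 window, which has 46.4% G and C against a median of 52.4% over 32851 promoters of the same length. The Fndc1 window (56.0% G and C) held 1 TATA box match starting 219 bases before the start and 1 GC box match 88 bases before it. Among all 32851 promoters 12.4% held the TATA letters, 32.7% the GC box, 6.75% the AP-1 letters and 12.6% the TEAD letters. Of the other windows, Efemp1 held 1 AP-1 match and 1 GC box match, and the Fbn1 and Fbln2 windows held 1 GC box match each. The 3 Efemp2 windows held 2, 5 and 5 GC box matches, and the 2 Fbln5 windows 2 and 0. A second annotated Fbln1 start had 1 GC box match, 11 bases before it.

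Fbln1 (ENSMUSG00000006369, chromosome 15, 85205949 to 85286535 on mm10, plus strand) encodes fibulin-1, which binds fibronectin, laminin and tropoelastin and serves as a cofactor of the protease ADAMTS1. In GFP-N libraries its level ran from 0 to 207 CPM with a median of 33.8 CPM, and 11 of 12 libraries had counts. In GFP-P libraries it ran from 0 to 18.6 CPM with a median of 5.30 CPM, and 9 of 11 had counts. The lowest GFP-N values overlapped the GFP-P range, whereas 9 GFP-N libraries and 1 GFP-P library lay at or above 16.997 CPM. Fbln1 was lower in the GFP-P population of 9 of 10 identifiers, counting a population at 0 as lower only where the other lies above the level of 3 counts. In 8045-8050 GFP-N cells had 1 count (19.6 CPM) and GFP-P cells 0, where 3 counts stand for 80.8 CPM, so no direction could be given. Ratios of GFP-P to GFP-N were between 0.034 and 0.082 in 6 identifiers, but 0.66 in 3034 and 0.69 in 7968, where GFP-N 12 had only 1 count. In 5780 no Fbln1 count was seen in GFP-P cells, where 3 counts would stand for 9.22 CPM, against 16.997 CPM in GFP-N cells.

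Fbln2 (chromosome 6, 91212455 to 91272540, plus strand), a fibulin of basement membranes and vessel walls, had a GFP-N range of 0 to 146 CPM with a median of 64.3 CPM. Its GFP-P range was 0 to 140 CPM with a median of 6.15 CPM, so the ranges were nearly the same while the medians were far apart. A single identifier, 3034, supplied the highest value of both populations, with 62 counts (146 CPM) in GFP-N 1 and 592 counts (140 CPM) in GFP-P 1. The log2 fold change was -1.58 (SE 0.71) over all libraries and -2.75 without GFP-P 1. Without identifier 3034 the highest GFP-P level was 40.2 CPM.

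The smaller fibulins had few counts, and none passed the expression filter of the test. Fbln5 (chromosome 12), whose product tethers tropoelastin to microfibrils and to integrins, had counts in 6 of 12 GFP-N and 8 of 11 GFP-P libraries, with medians of 1.74 and 5.70 CPM. Its highest GFP-P value, 108 CPM, rested on 4 counts in the 37125 counts of GFP-P 4 (95% Wilson interval 41.9 to 277 CPM, counting error only). Efemp1 (fibulin-3, chromosome 11), known from basement membranes and the eye, had 18 counts over all GFP-N and 71 over all GFP-P libraries, or 2.96 and 3.77 CPM after pooling. Efemp2 (fibulin-4, chromosome 19), which brings lysyl oxidase to tropoelastin, had a median of 14.9 CPM in GFP-N (0 to 102) and 6.15 CPM in GFP-P libraries (0 to 17.0). Fitted without a filter, the log2 fold changes were -0.84 for Fbln5 (SE 0.85), -0.05 for Efemp1 (SE 0.73) and -1.91 for Efemp2 (SE 0.69). By the same reading Fbln5 was lower in GFP-P cells of 5 identifiers and higher in 3, Efemp1 lower in 3 and higher in 2, and Efemp2 lower in 6 and higher in 1. The others were at 0 in both populations or under the level of 3 counts. Fbln2 was lower in 8 identifiers and higher in 1, 7789-7795.

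Eln (ENSMUSG00000029675, chromosome 5, 134702593 to 134747323, minus strand) encodes tropoelastin and had the highest values of the 10 genes. Its GFP-N levels ran from 0 to 1474 CPM with a median of 42.0 CPM, and its GFP-P levels from 0 to 50.1 CPM with a median of 19.7 CPM. GFP-N 8, 9, 10 and 11 had 393, 1474, 688 and 588 CPM, while no other GFP-N library was above 82.2 CPM. The 1657 counts of GFP-N 9 (identifier 40-1) were 1657 of the 2224 counts of the whole GFP-N group. Eln was lower in the GFP-P population of 6 of 10 identifiers, higher in 7789-7795 and 7968, without a count on either side in 7421, and under the level of 3 counts in 8045-8050.

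Of the microfibril genes, Fbn1 (chromosome 2, 125300594 to 125507993, minus strand), the main structural protein of microfibrils and a binding partner of latent TGF-beta, had a median of 24.995 CPM in GFP-N (0 to 251) and 8.71 CPM in GFP-P libraries (0 to 45.1). Mfap5 (chromosome 6, 122505845 to 122529290, plus strand), a small glycoprotein of the microfibril surface, had medians of 28.4 CPM (0 to 342) and 11.3 CPM (0 to 85.4). GFP-N 9 had the highest level of both genes, and GFP-P 1 the highest level of both within the GFP-P group. Each was lower in GFP-P cells of 6 identifiers and higher in 2. The log2 fold changes were -2.22 for Fbn1 (SE 0.78, fitted without a filter) and -2.35 for Mfap5 (SE 0.85).

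Lox (chromosome 18, 52516067 to 52529867, minus strand) encodes lysyl oxidase, which oxidises lysines of tropoelastin and collagen so that the chains cross-link. Its GFP-N range was 0 to 86.2 CPM with a median of 32.1 CPM, and its GFP-P range was 0 to 37.7 CPM with a median of 2.50 CPM. In GFP-P cells 10 of 11 libraries were at or below 10.5 CPM, the exception being GFP-P 1. Lox was lower in the GFP-P population of 9 identifiers and at 0 on both sides of the other, 8045-8050. Fndc1 (chromosome 17, 7738569 to 7827302, minus strand) had a GFP-N median of 19.4 CPM (0 to 127) and a GFP-P median of 5.64 CPM (0 to 31.1). It was lower in GFP-P cells of 8 identifiers, higher in 3034, and under the level of 3 counts in 8045-8050.

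**Figure D1:**
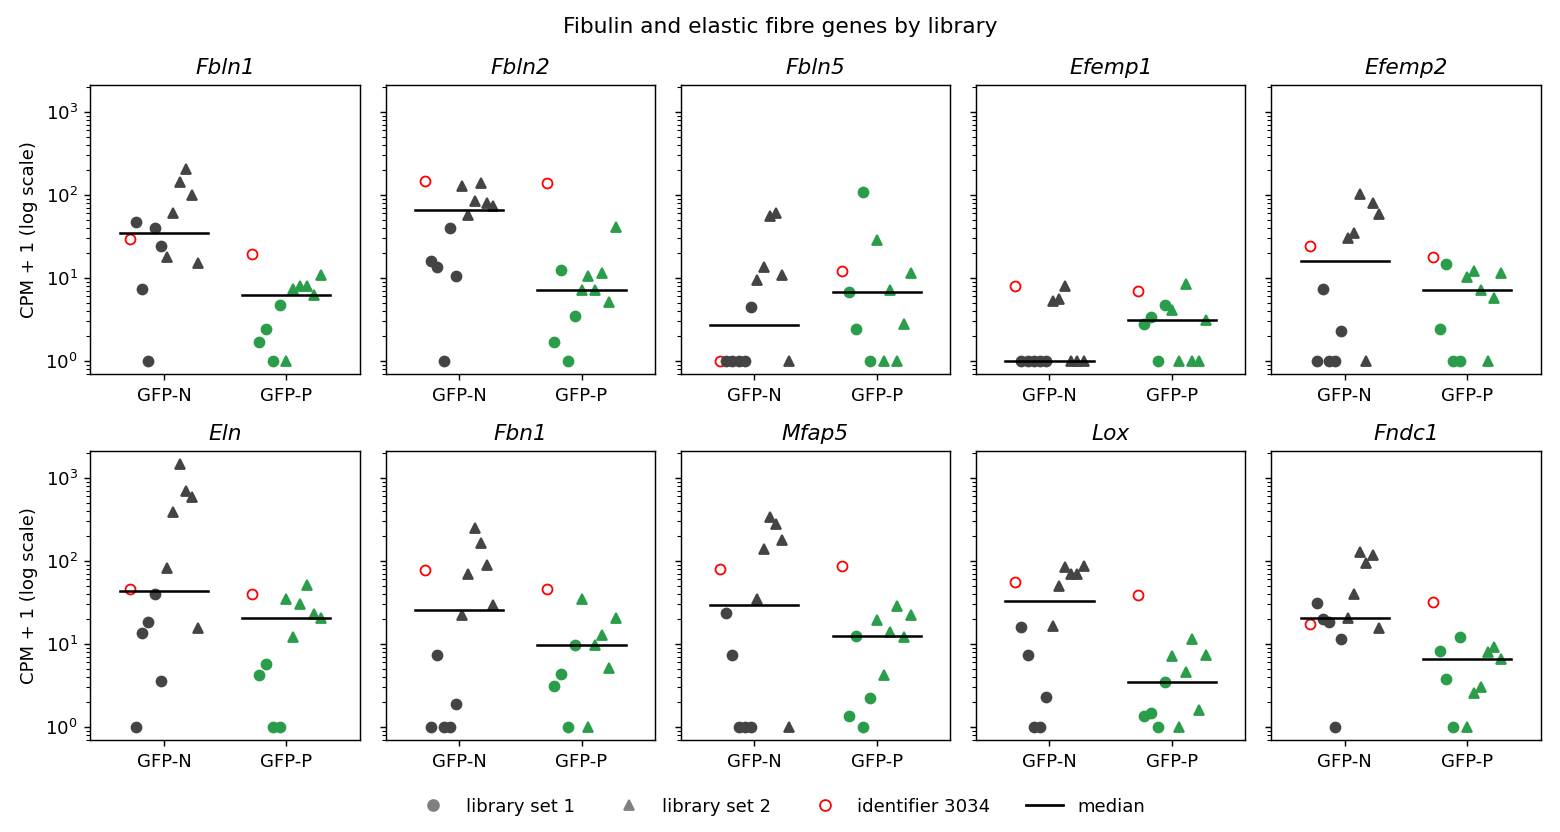
Level of each of the 10 genes in every library, as CPM + 1 on a log axis, with GFP-N libraries in grey and GFP-P libraries in green; circles are library set 1, triangles library set 2, open red circles identifier 3034, and bars medians. The 4 highest Eln values, 393 to 1474 CPM, are GFP-N libraries of set 2, and the GFP-P library of 3034 is the highest GFP-P value for Fbln1, Fbln2, Efemp2, Fbn1, Mfap5, Lox and Fndc1.

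Read against the whole table, 5 of the 10 genes passed the expression filter (Fbln1, Fbln2, Eln, Mfap5 and Fndc1), and 1 of these 5, Fbln1, was below the threshold of adjusted p 0.05 in edgeR, where 0.0151% of 6621 genes were called lower. A gene that is high in 1 population can pass the filter through that population, and the contrast chose the list, so nothing is read from this count. With single libraries left out Fbln1 lay below the filter in 11 of 23 refits, as it did without identifier 3034. DESeq2 called Fbln1, Eln and Fndc1 lower, where 0.347% of genes were called lower, and nothing is read from this count either. In library set 1 alone none of the 10 passed the filter. In library set 2 alone 7 passed it (Fbln1, Fbln2, Eln, Fbn1, Mfap5, Lox and Fndc1), and their log2 fold changes ran from -4.30 (Eln, SE 0.83) to -2.82 (Fbln2, SE 0.50).

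The size of the difference varied between identifiers. In 3034 the summed level of the 10 genes was 478 CPM in GFP-N and 430 CPM in GFP-P cells, and 3 of 10 genes (Fbln5, Mfap5 and Fndc1) were higher in GFP-P cells. Mfap5 had 80.0 CPM in GFP-N 1 and 85.4 CPM in GFP-P 1, and Eln 44.7 and 38.7 CPM. In 40-1 the sums were 2669 and 89.7 CPM, in 7907 1695 and 125 CPM, in 7914 1304 and 61.8 CPM, and in 61-1 857 and 33.3 CPM. These 4 had the highest GFP-N sums. In 5780 they were 361 and 138 CPM, in 7968 287 and 146 CPM, and in 7421 129 and 33.8 CPM. In 7789-7795 both sums were 52.9 CPM, with 6 of 10 genes higher in GFP-P cells, and in 8045-8050 they were 76.2 and 108 CPM, the latter from 4 counts of Fbln5. The sums were nearly level in 3034, which was high in both populations, and in 7789-7795, which was low in both.

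**Figure D2:**
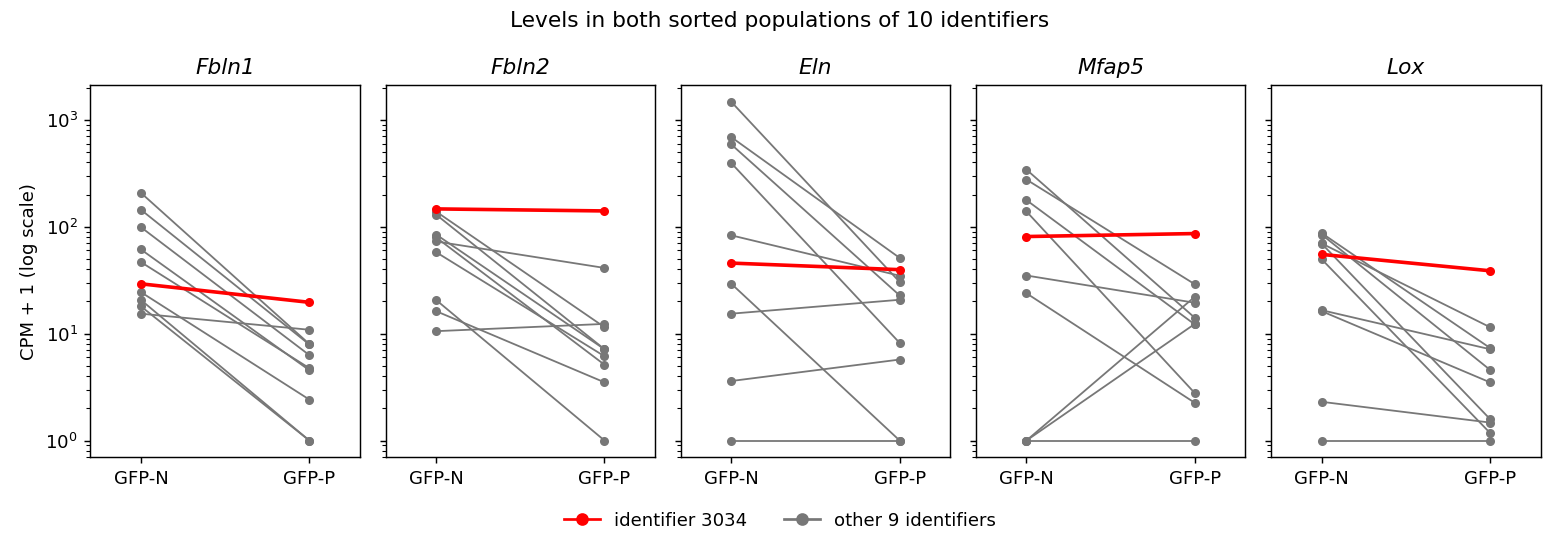
Levels (CPM + 1, log axis) of 5 of the genes in GFP-N and GFP-P cells of the 10 identifiers, each line 1 identifier, with libraries of the same population averaged. The red line of 3034 is almost level for Fbln2 (146 and 140 CPM) and Mfap5 (80.0 and 85.4 CPM), while most grey lines fall.

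Library set was not itself used to choose the genes. Levels were tested between the sets in a fit over all 23 libraries with the sorted population as a covariate. For Fbln1, Eln and Fndc1 this test is not independent of the choice, because their high GFP-N values of set 2 enter both. GFP-N medians in sets 1 and 2 were 25.8 and 79.2 CPM for Fbln1, and 16.9 and 67.0 CPM for Fndc1. Eln was higher in set 2, with a log2 difference of 2.87 (SE 0.84, edgeR unadjusted p = 0.00258, adjusted p = 0.383), which did not pass the threshold. Fitted in GFP-P libraries alone, the Eln difference was 1.29 (SE 0.73, edgeR adjusted p = 0.805). In GFP-N cells its median was 15.02 CPM in set 1 (0 to 44.7, n = 6) and 491 CPM in set 2 (14.4 to 1474, n = 6), and in GFP-P cells 3.21 CPM (0 to 38.7, n = 5) and 25.6 CPM (11.2 to 50.1, n = 6). None of the 5 genes tested was called by edgeR, 1 (Eln) had an unadjusted p under 0.05, and DESeq2 called 1, Eln (3.05, SE 0.79, adjusted p = 0.0342). Of all 6621 genes DESeq2 called 0.423%, and edgeR called 0.0906% and 0.0453% as higher in set 2. Without a filter 0 of the 10 genes were called, where 0.0419% of 23846 were called higher. By edgeR Eln passed once GFP-P 1 was left out, with 4.21 (adjusted p = 0.0256), or all of 3034, with 4.55 (SE 0.83, adjusted p = 0.0184), a setting chosen after seeing the data. Over single libraries left out in turn its adjusted p ran from 0.0256 to 0.620. Fbln1 had 1.03 (SE 0.51, adjusted p = 0.747), Mfap5 1.00 (SE 0.90, adjusted p = 0.926), Fndc1 0.25 (SE 0.57, adjusted p = 0.981) and Fbln2 -0.18 (SE 0.74, adjusted p = 0.990). Set 2 GFP-N libraries also had higher sums of fibroblast markers, 1409 to 9771 CPM against 139 to 2897 CPM in set 1, whose part in the difference was not tested.

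Levels of the genes relative to each other were compared per kilobase of annotated exon, as mean CPM per kb over the 12 GFP-N libraries. By means Eln came first with 34.5 ± 55.5 CPM per kb (SD, n = 12), ahead of Mfap5 with 24.95 ± 33.03 and Fbln1 with 13.0 ± 14.3. Fbln2 (10.2), Lox (7.82) and Efemp2 (7.32) formed the middle, followed by Fbn1 (4.86) and Fndc1 (4.27), with Fbln5 (1.81) and Efemp1 (0.94) last. No neighbours in this order differed by more than the SD of their difference between libraries. Fndc1 stood above Fbln5 in 11 of 12 libraries, the most regular step, and Eln above Mfap5 in 9 of 12. The Eln mean rests on GFP-N 9, and was 21.1 CPM per kb without it, with Mfap5 at 18.6. By medians the order was another, with Fbln2 (10.1 CPM per kb) ahead of Mfap5 (7.92), Fbln1 (7.73), Lox (6.73) and Eln (5.19).

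Markers of other cell types were measured beside the 10 genes, because both populations could hold stromal RNA, and in bulk samples fewer cells of a type and less RNA per cell cannot be told apart. The 15 fibroblast markers had summed levels of 139 to 9771 CPM in GFP-N (median 2153 CPM) and 26.9 to 2411 CPM in GFP-P libraries (median 239 CPM), and none was at 0 over either group. All 7 tested fibroblast markers had a negative fold change (median -2.14). By edgeR 0 were called (smallest adjusted p = 0.730) with 6 at an unadjusted p under 0.05, and DESeq2 called 1, Col1a1. Among them were Col1a1, a collagen chain, at -2.89 (SE 0.84) and Dcn, decorin, at -1.86 (SE 0.74). Over all 6621 genes the median was 0.07, with 328 at an unadjusted p under 0.05 by edgeR and 24 called by DESeq2. Pdgfra, a receptor that marks fibroblasts, had medians of 3.005 and 1.177 CPM. The smooth muscle and pericyte sum had medians of 255 CPM (0 to 876) and 47.7 CPM (0 to 349), the endothelial sum 135 CPM (28.7 to 680) and 85.0 CPM (26.9 to 288), and the macrophage sum 2644 CPM (408 to 6812) and 364 CPM (145 to 31594). For 9 tested macrophage markers edgeR gave 6 positive and 3 negative fold changes (median 0.05, 0 called, 0 at an unadjusted p under 0.05), while DESeq2 gave 9 negative ones and called 5 (Apoe, C1qa, C1qb, Cd68 and Tyrobp). GFP-P 3 holds the highest macrophage sum. Of 12 tested epithelial markers edgeR gave 10 positive and 2 negative fold changes (median 0.27, 0 called, 2 at an unadjusted p under 0.05). The mesothelial sum had medians of 133 CPM (39.3 to 270) and 200.2 CPM (102 to 566). Their part in the levels of the 10 genes was not tested.

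Within GFP-N cells alone, levels were set against the fibroblast sum, on log2(CPM + 1). The 6 genes used were those with counts in at least 9 of the 12 libraries. The contrast itself is not part of this relation, but the GFP-N values that helped to choose Fbln1, Eln and Fndc1 are. The limit of 9 libraries also keeps genes by their GFP-N counts. The p-values below are therefore not independent of the choice. By r 5 of the 6 passed over all 12 libraries, Fndc1 did not, and none passed within either library set. Pearson's r was 0.90 for Fbn1 (Spearman's rho 0.84), 0.88 for Eln (0.92), 0.81 for Fbln2 (0.78), 0.77 for Lox (0.74), 0.67 for Fbln1 (0.76) and 0.54 for Fndc1 (0.73). The permutation tests (100000 resamples, two-sided) gave raw p-values for r of 0.00034, 0.00015, 0.00042, 0.00451, 0.0113 and 0.0646, and Benjamini-Hochberg adjusted values over 6 relations of 0.00084, 0.00084, 0.00084, 0.00676, 0.0136 and 0.0646. For rho the raw permutation p-values were 0.00114, 6.0e-05, 0.00371, 0.00794, 0.00602 and 0.00957, and the adjusted values 0.00342, 0.00036, 0.00742, 0.00953, 0.00903 and 0.00957. Leaving out GFP-N 6 and GFP-N 3, the libraries farthest from the median sum, gave r between 0.56 (Fndc1) and 0.95 (Fbn1). In library set 2 alone r was 0.90 for Eln, 0.87 for Fbln1 and Fbn1, 0.82 for Fndc1, 0.37 for Fbln2 and 0.15 for Lox, with adjusted exact permutation p of at least 0.0667 (n = 6). In set 1 alone r ran from -0.23 (Fndc1) to 0.75 (Fbln2), and the smallest adjusted exact permutation p for r was 0.358 (n = 6), so the relation did not pass within either set. Without GFP-N 1 and GFP-N 5 the set 1 values changed sign for most genes. They were then -0.50 for Fbn1, -0.26 for Fbln2, -0.19 for Eln, -0.16 for Fbln1, 0.30 for Lox and 0.88 for Fndc1. In the 11 GFP-P libraries r was 0.88 for Fbln2, 0.86 for Fbn1, 0.84 for Lox and 0.78 for Eln (permutation, adjusted p of 0.00198 to 0.00619). Fbln1 had 0.58 there, which fell to 0.13 without GFP-P 1 and GFP-P 4 and so rests on those libraries. Fndc1 had 0.34 (rho 0.05), and -0.54 without the same libraries. Fbln2, Fbn1, Lox and Eln had 0.72, 0.74, 0.74 and 0.63 without them.

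Per 100 counts of the fibroblast markers the 10 genes summed to a median of 22.3 in GFP-N (11.4 to 51.5) and 18.9 in GFP-P libraries (11.7 to 33.4, and 400 in GFP-P 4 on 4 counts of Fbln5). Of the 12 GFP-N libraries 4 lay above 33.4, and the other 8 lay within or just below the GFP-P range. Fbln1 alone had a median of 2.11 per 100 in GFP-N (0 to 18.2) and 0.81 in GFP-P libraries (0 to 2.87). GFP-N 2 and GFP-N 6 had 18.2 and 16.8, well above every GFP-P library. The value of GFP-N 2 rests on 6 Fbln1 counts in a total of 131307 (45.7 CPM, 95% Wilson interval 20.9 to 99.7). GFP-N 6 is deep, at 2304316 counts, and held 54 Fbln1 counts (23.4 CPM, 95% Wilson interval 18.0 to 30.6), with 24 of Fndc1, 22 of Fbln2, 6 of Eln, 2 of Fbn1 and 0 of Mfap5, beside a fibroblast sum of 139 CPM. GFP-P 3 of the same identifier had 3 Fbln1 counts (1.42 CPM, interval 0.482 to 4.17) at a fibroblast sum of 221 CPM. The libraries also differed in other marker sums. GFP-P 3 had a macrophage sum of 31594 CPM and an epithelial sum of 3363 CPM, against 408 and 8704 CPM in GFP-N 6.

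**Figure D3:**
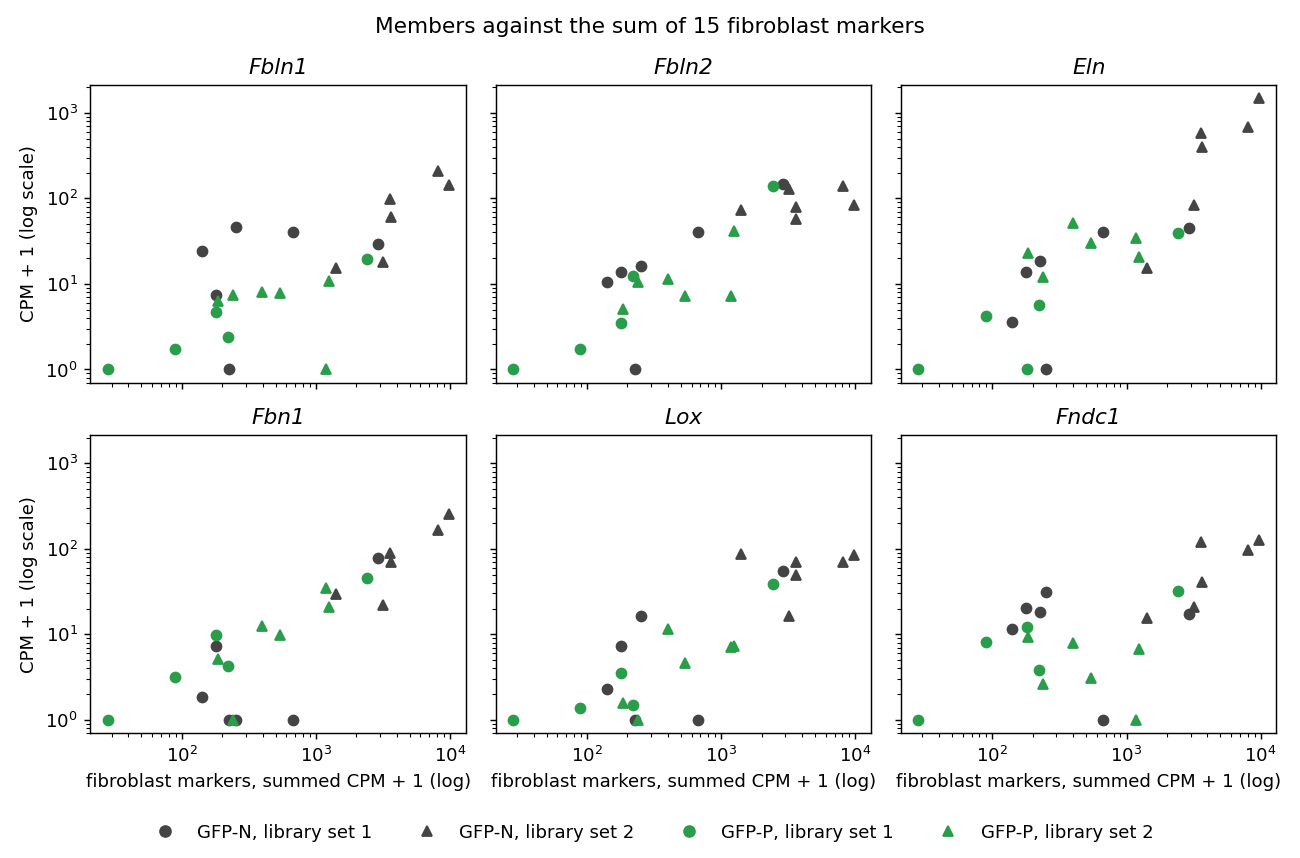
Level of 6 of the genes against the summed level of 15 fibroblast markers, both as CPM + 1 on log axes, 1 point a library, grey for GFP-N and green for GFP-P, circles for library set 1 and triangles for set 2. Fbn1 rises with the sum over all libraries of each population, but not by rank within GFP-N library set 1 (Spearman's rho 0.03, n = 6). Grey circles of Fbln1 lie high at low sums in GFP-N 6 (23.4 CPM, 54 counts) and GFP-N 2 (45.7 CPM, 6 counts).

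The genes also moved with each other, as a description over libraries that share depth and stromal markers. In GFP-N libraries all 45 pairs had a positive Spearman rho (0.19 to 0.89, median 0.63), and in GFP-P libraries 41 of 45 had (median 0.36). Of the other 9 genes, Fbln2 was most like Fbln1 over the 23 libraries (rho 0.80), and Efemp1 least (0.09). Among all genes that passed the filter outside the list, the 10 most like Fbln1 were Igfbp5 (0.81), Sparc (0.77), Lum (0.76), Col1a2 (0.75), Mmp14 (0.75), Actg2 (0.74), Serinc5 (0.72), Fstl1 (0.72), Igfbp7 (0.70) and Pcna (0.68). The lower GFP-P level of Fbln1, which prompted the list, enters each rho taken over the 23 libraries. Within GFP-N libraries the rho of these 10 ran from 0.59 (Serinc5) to 0.86 (Mmp14). Pcna, a replication factor, had 0.60 in GFP-N and -0.02 in GFP-P libraries, whereas Igfbp5, an insulin-like growth factor binding protein, had 0.76 and 0.92.

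Other genes of the pathway, 78 listed by role and not by their change, give the setting. The table held 77 of them, 33 passed the filter, and 0 were called by edgeR (smallest adjusted p = 0.730) or by DESeq2. At an unadjusted p under 0.05 by edgeR 8 of the 33 were lower and 2 higher. Over all 6621 genes 147 were lower and 181 higher at that level. Their median log2 fold change was -0.29, with 22 negative and 11 positive, against a median of 0.07 over all 6621 genes, of which 2748 were negative. Among further microfibril genes none of 16 passed the filter. Ltbp4 and Ltbp2, latent TGF-beta binding proteins, had 37.1 ± 59.5 and 35.6 ± 49.1 CPM in GFP-N and 13.6 ± 16.8 and 7.06 ± 9.93 CPM in GFP-P libraries (SD, n = 12 and 11). Mfap4, another microfibril glycoprotein, had 31.9 ± 51.7 and 4.33 ± 8.17 CPM (SD, n = 12 and 11). Of the cross-linking genes Loxl2, a lysyl oxidase relative, had -0.88 (SE 0.28, edgeR unadjusted p = 0.0036, adjusted p = 0.730), from counts in all 12 GFP-N libraries (69.3 to 235 CPM) and 10 of 11 GFP-P libraries (0 to 154 CPM). Pcolce, which enhances procollagen processing, had -0.29 (SE 0.53), and the copper transporter Atp7a -0.05 (SE 0.37).

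Matrix partners of the fibulins included Fn1, fibronectin, at -0.19 (SE 0.40), Dcn at -1.86 (SE 0.74) and Ecm1 at 0.42 (SE 0.30). Receptor genes were centred near 0, with a median of 0.06 over 7 genes, Itgb1 (an integrin chain) at -0.07 (SE 0.21), Ctsa (a lysosomal protein of the elastin receptor complex) at 0.06 (SE 0.31) and Itgav (an integrin chain that binds RGD motifs) at 0.28 (SE 0.35). Proteases that cut elastin or its partners had a median of -0.21 over 6 genes, 3 positive and 3 negative. The positive ones were Ctsl, cathepsin L, at 0.15 (SE 0.20), Ctss, cathepsin S, at 0.20 (SE 0.88) and Mmp7, matrilysin, at 0.61 (SE 0.37). Among the negative ones were Mmp14 at -2.04 (SE 0.73) and Mmp12 at -1.35 (SE 0.91). The median of Ctss was 410 CPM in GFP-N and 95.7 CPM in GFP-P libraries, and its highest level was 3877 CPM in GFP-P 3. Protease inhibitors had a median of -1.01 over 7, with Wfdc2 at 0.51 (SE 0.24), Timp2 at 0.17 (SE 0.29) and Timp3 at -1.30 (SE 0.66). The TGF-beta genes Thbs1, Tgfbr2 and Tgfb3 had -0.51 (SE 0.43), -0.61 (SE 0.37) and -1.12 (SE 0.42). Npnt, a relative of the fibulins by its EGF-like repeats, had 0.21 (SE 0.35).

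In library set 2 alone edgeR called 8 of 37 tested partner genes lower in GFP-P cells and 0 higher. Of all genes 1.24% were called lower and 1.28% in either direction. These are counts of calls, and the uncalled partner genes had fold changes of either sign (median -0.93 over the 37). Mmp14, a membrane-bound protease of stromal and tumour cells, had a log2 fold change of -3.46 with an SE of 0.56 (adjusted p = 0.00157 by edgeR). Bgn, a small matrix proteoglycan, fell by 3.85 (SE 0.58, adjusted p = 0.0049), and Mmp12, the elastase of macrophages, by 3.81 (SE 0.58, adjusted p = 0.0014). Mmp2, Ctss, Tgfb3, Thbs1 and Fn1 fell by 3.43, 2.57, 2.03, 1.18 and 0.97 (edgeR adjusted p of 0.00198 to 0.0281). In this set the fibroblast sum was 1409 to 9771 CPM in GFP-N and 185 to 1247 CPM in GFP-P libraries, and the macrophage sum 2451 to 6510 and 145 to 855 CPM, and their part in these calls was not tested. In set 1 alone no gene of the table was called (284 of 5256 at an unadjusted p under 0.05 by edgeR).

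**Figure D4:**
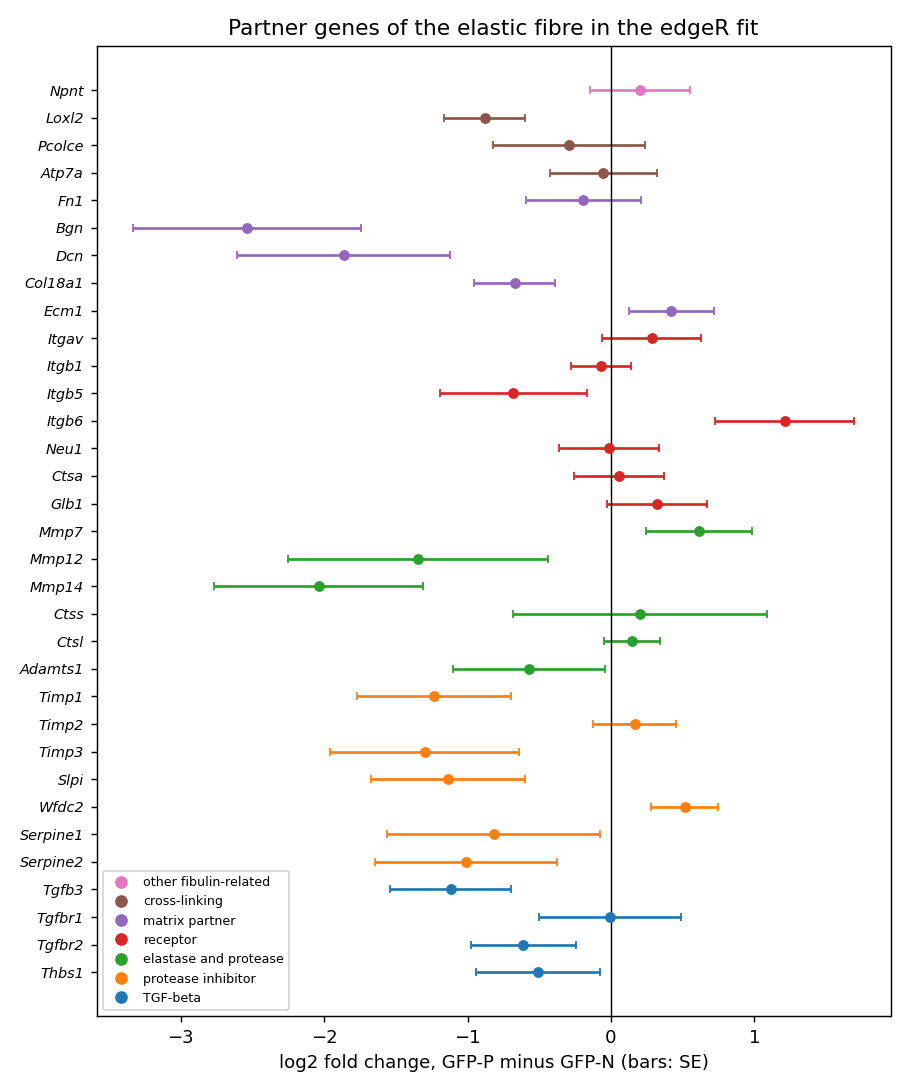
Log2 fold change, GFP-P minus GFP-N, of the 33 tested partner genes over all 23 libraries, coloured by role, with bars for the SE. Points range from -2.54 to 1.21, and none was called by edgeR.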

How the data were processed

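RNA was poly(A)-selected and made into NEBNext Ultra II Directional libraries per the labels' protocols, which speak of organoids as the RNA source where the design text speaks of digested tumours. The authors deposited expected counts per gene (whole numbers, not normalized), made with Salmon 1.3.0 on mm10 per the submitters' processing notes; the sources used here give no annotation. Salmon shares reads among similar transcripts, and strand handling is not stated, so overlapping genes may share counts.

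Counts were tested with edgeR 4.0.16 in R 4.3.3 (TMM, filterByExpr by population, robust quasi-likelihood fit, Benjamini-Hochberg adjustment over all genes tested, threshold 0.05); DESeq2 1.42.0 was an alternative. SE is the log2 fold change over the root of the F statistic. Genes below the filter were fitted without it. CPM uses library totals without TMM factors. Coordinates and exon lengths are from GENCODE M21 (mm10), and promoters from RefSeq. A count of 0 allows up to 3 counts, and intervals (95% Wilson) cover counting error only. Scripts were tested on simulated data. No label ties a library to its own animal, and p-values therefore reflect only how these libraries vary, perhaps technically. Pairs within a population differed beyond sampling noise (chi-square per degree of freedom at least 2.66).

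The genes, lists and tests were chosen with earlier results of these data known. Besides the 10 genes, the text names partner genes past the threshold and up to 3 per role with the highest mean CPM, the 10 genes most like Fbln1, Basp1 and marker genes.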

Additional observations from a re-analysis of the deposited data

Results flagged for a closer look

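Within the 40 combinations of gene, population and library set, each with 5 or 6 libraries, 15 held a library far from its neighbours by Dixon's criterion, where chance flags about 1 in 20 groups; levels are skewed and often 0, which the criterion does not allow for. Of the 15, 12 were libraries of identifier 3034. In GFP-P 1 they were Fbln1 (18.6 CPM, the next library at 3.75), Fbln2 (140 CPM, next 11.3), Eln (38.7 CPM, next 4.72), Fbn1 (45.1 CPM, next 8.76), Mfap5 (85.4 CPM, next 11.3) and Lox (37.7 CPM, next 2.50). In GFP-N 1 they were Fbln2 (146 CPM, next 39.3), Efemp1 (7.06 CPM, next 0), Efemp2 (23.5 CPM, next 6.36), Fbn1 (77.7 CPM, next 6.36), Mfap5 (80.0 CPM, next 22.8) and Lox (54.1 CPM, next 15.2). GFP-N 1 and GFP-P 1 also had the highest fibroblast sums of set 1, 2897 and 2411 CPM.

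The other 3 were Fbln2 in GFP-P 11 (40.2 CPM, next 10.5), Fbln5 in GFP-N 6 (3.47 CPM on 8 counts, next 0) and Fbln5 in GFP-P 4 (108 CPM on 4 counts, next 11.1).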

How the results depend on the processing

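The log2 fold changes between populations kept their sign in 124 of 124 refits, over the 7 genes with another fit, which describes values that chose the list; Fbln5, Efemp1 and Efemp2 had none. Differences between library sets kept their sign in 105 of 112; Fbln2 changed sign in 4, from -0.18 to at most 1.20 (without GFP-P 1), and Mfap5, Fbn1 and Efemp2 to -0.51, -0.18 and -0.24 in GFP-P libraries alone. Genes called between populations numbered 1, with 24 by DESeq2, 0 in set 1 and 89 in set 2 alone, and 0 to 16 with single libraries left out. It was 0 without GFP-N 1, 2, 5, 6, 7, 8, 9, 10, 11 or 12, where Fbln1 lay below the filter, 3 without GFP-P 1 (Fbln1 below the filter) and 16 without GFP-P 3. Replicate numbers did not pair the libraries (2 of 11 same-numbered pairs correlated over 0.1, and 5 of 12 pairs by identifier): a replicate block by number gave 0 genes and a replicate block by identifier 2. Partner genes called were 8 in set 2 alone and 0 in every other refit. Genes called between library sets numbered 6, with 28 by DESeq2, 33 without a filter, 2 in GFP-N and 2 in GFP-P libraries alone, 3 without libraries under 100000 counts, 17 without identifier 3034, and 2 to 8 with single libraries left out. Of the 10 genes 0 were called there, with 1 by DESeq2, 1 without identifier 3034, and 0 to 1 with single libraries left out (Eln each time). Genes correlated with the fibroblast sum numbered 5 of 6, and 0 in set 1 alone and 0 in set 2 alone, each with fewer libraries; under the other settings 4 to 6 were. Other causes were not tested. Depth limits all values of libraries under 100000 counts, where 3 counts stand for 43.1 to 118 CPM.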
